A study of Mus musculus with 14 samples.

Results

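The 10 genes described here encode the receptors and adhesion molecules that hold hematopoietic stem and progenitor cells in the bone marrow niche. They are Cxcr4, Itga4, Itga5, Itga6, Itgal, Itgb1, Cd44, Cd47, Selplg and Esam, chosen by name with no measured value in the rule, and they are 10 of 21441 protein-coding genes whose start could be placed. The question was whether the trimethylation of histone H3 lysine 4 (H3K4me3) at their starts differed between diets. H3K4me3 was profiled by antibody-directed tagmentation (CUT&Tag in the protocols, CUT&RUN in the sample titles) in sorted Lin-Sca1+cKit+ (LSK) bone marrow cells of male C57BL/6J mice fed a high-fat diet (HFD-LSK, 3 libraries) or a low-fat control diet (LFD-LSK, 4 libraries). The mice went on their diet around weaning and stayed on it for several months, and no transgene or deletion is named for them. Whether each library came from 1 mouse or from a pool is not given in the sources used here. The p-values therefore measure only the spread between these libraries. The study states that a further cohort was added for LSK cells, but the labels name no cohort and none was modelled. Each library had an IgG control, and the IgG libraries were not analyzed on their own.

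H3K4me3 is laid down around the starts of genes that are active or ready to be transcribed, mostly at promoters rich in CpG, and a broad domain often marks genes that define a cell's identity. In the marrow, progenitors stay in place through the chemokine receptor CXCR4, which follows CXCL12 made by stromal cells, and through integrins, which are paired alpha and beta chains that bind VCAM1, fibronectin, laminin or ICAMs. CD44 binds hyaluronan, the P-selectin ligand encoded by Selplg starts rolling on endothelium, ESAM sits at cell junctions and marks stem cells, and CD47 signals to macrophages not to engulf the cell.

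Each library gave 1 list of peaks called against its own IgG control, and the lists held 6921 to 13094 peaks. The shortest list was that of LFD-LSK replicate 4. A gene start counted as called where a peak lay within 1 kb of it. The fold rank of a start is the percentage of peaks in the same list with a higher fold enrichment, so a low rank is near the top of the list. Fold was not compared between libraries as a level, because it depends on each library's depth and control. Of the LSK markers, 5 of 14 were called in all 7 lists, Kit and Cd34 among them, whereas Ly6a and Slamf1 were called in none. Of 4 markers each, T cell and B cell markers were called in no list, 1 mature myeloid marker was called in 6 lists (Cd14), 3 erythroid markers were called in 1 to 5 lists, and 1 marker of endothelium and stroma (Cxcl12) was called in 2. In such bulk libraries, a mark in fewer cells and less of the mark in each cell cannot be told apart.

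H3K4me3 was called at the start in all 7 lists for 5 of the 10 genes. These were Cxcr4, Itga4, Itgb1, Cd44 and Cd47. Over all protein-coding starts, 21.8% were called in all 7 lists. Itga6 and Esam were called in 6 lists, missing only in LFD-LSK replicate 4, and Itga5 was called in 5 lists, missing in LFD-LSK replicates 2 and 4. Itgal and Selplg were called at the start in no list (2 of 10 genes), a state shared by 46.1% of all starts. HFD-LSK lists therefore held 24 of 30 possible calls and LFD-LSK lists 28 of 40. Over all starts, the HFD-LSK lists called 41.4%, 51.8% and 45.6% and the LFD-LSK lists 34.8%, 45.1%, 43.3% and 30.6%. No gene's calls differed between the diets in Fisher's exact test (two-sided), in which the lowest p was 0.429, for Itga5 with 3 of 3 HFD-LSK lists against 2 of 4 LFD-LSK lists. With 3 against 4 libraries the smallest p this test allows is 0.0286.

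**Figure D1:**
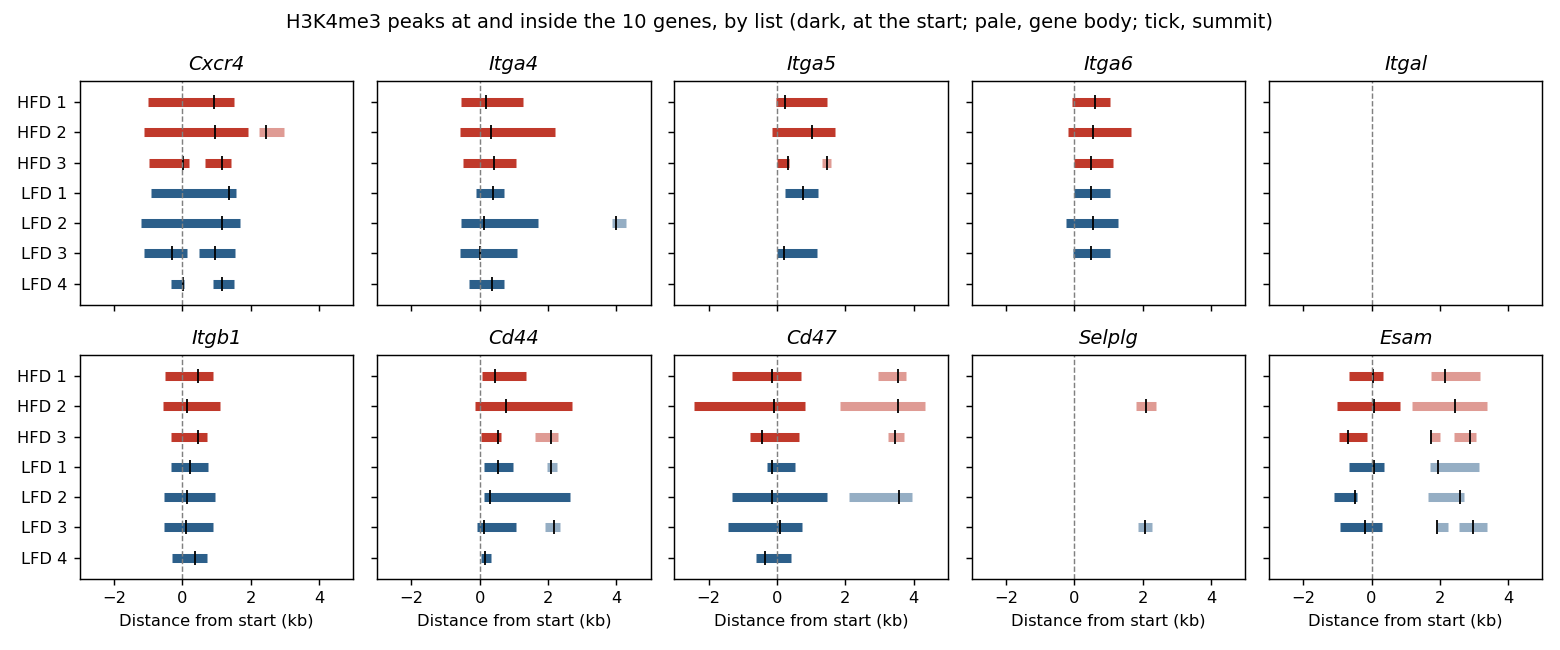
H3K4me3 peaks at the 10 genes, 1 row for each list and 1 panel for each gene, with distance from the gene start in kb along the direction of transcription. Dark bars are peaks within 1 kb of the start, pale bars other peaks in the gene body, and ticks are summits. Itgal is empty in all 7 rows, Selplg has a peak in 2 rows, and LFD 4 has no bar at Itga5, Itga6 or Esam.

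Promoter sequences (RefSeq, GRCm38.p6) were at hand for 6 of the 10 genes, namely Cxcr4, Itga4, Itga5, Itgb1, Cd44 and Cd47. Itga6, Itgal, Selplg and Esam had no entry. Stretches of Cxcr4 and Itga5 are shown, since among the called genes these had the mean fold rank nearest to and farthest from the top. Capitals mark TATAAA or, on the opposite strand, GGGCGG (read here as CCGCCC). All stretches lie before the start, read 5′ to 3′ on the gene's strand, and both genes are on the minus strand.
Cxcr4, chr1:128592312-128592341: ggagcgtgttttTATAAAagtccggttcgg
Cxcr4, chr1:128592332-128592361: gctgcgcatgcgCCGCCCcgggagcgtgtt
Itga5, chr15:103366792-103366821: gagaggagggcgaagaacccaagcCCGCCC

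The TATAAA of Cxcr4 began 30 bases before the start. Of the 6 promoters, Cxcr4's alone held TATAAA, a hexamer present in 13.3% of 17492 protein-coding promoter windows of the same length (250 bases before to 50 after the start, both strands). GGGCGG, the core of a GC box, was in all 6 windows and in 46.3% of all windows. The 6 starts were each called in 5 or 7 lists, whereas all windows include 7989 whose start was called in none. Median GC was 48.3% in those and 64% in windows of starts called in all 7 lists. The shares given here are therefore not a matched background. Of the other motifs searched, CCAAT (39.0% of windows) and CACGTG (7.90%) were in none of the 6. ACGTG, which overlaps CACGTG, was in Cd44 and Cd47 (20.7% of windows), AGATAA in Cd44 (9.96%), and TGTGGT in Itga4 (15.1%). A match is a run of letters and not evidence of binding.

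The 6 promoters ranged from CpG-rich to CpG-poor, with Itga5 between. The ratio of observed to expected CpG was 0.862 in Cd47 (35 CpG in 300 bases), 0.798 in Itgb1 (27 CpG) and 0.767 in Cxcr4 (20 CpG). It was 0.504 in Itga5 (13 CpG), 0.322 in Itga4 (10 CpG) and 0.246 in Cd44 (6 CpG). The median was 0.836 over starts called in all 7 lists (middle range 0.698 to 0.957) and 0.216 over starts called in none. Itga4 and Cd44 were thus called in every list from windows whose CpG ratio lay below the lower quartile of such starts.

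**Figure D2:**
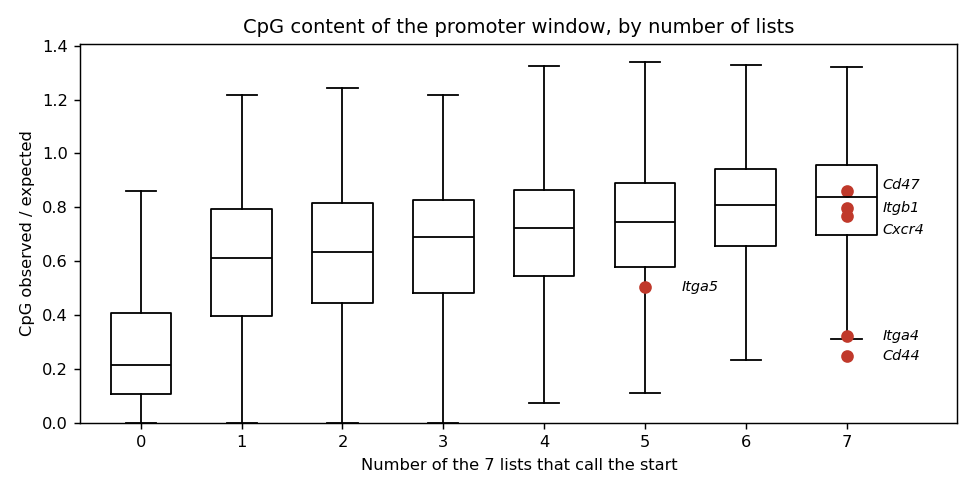
Ratio of observed to expected CpG in the promoter window against the number of the 7 lists that call the start. Boxes give the middle range and the median of all protein-coding starts, whiskers reach to the last value within 1.5 box lengths, and red points are the 6 genes with a sequence. Itga4 (0.322) and Cd44 (0.246) lie far below the box of starts called in all 7 lists.

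Cxcr4, the receptor for CXCL12, had the mean fold rank nearest the top of the called genes, taking the strongest peak within 1 kb. Its fold rank was 19.2%, 14.1% and 9.40% in HFD-LSK and 22.8%, 4.67%, 7.23% and 31.8% in LFD-LSK. The diets overlapped, with the HFD-LSK lists lying inside the LFD-LSK range. The means were 14.2% ± 4.89 (SD, n = 3) and 16.6% ± 12.9 (SD, n = 4), a difference of -2.39 percentage points (exact permutation test over the 35 assignments of 7 libraries, two-sided, p = 0.771). Summed over the peaks within 1 kb of the start, width was large for this data set. It was 2507, 3043 and 1930 bp in HFD-LSK and 2477, 2889, 2305 and 985 bp in LFD-LSK. The mean of 2305 bp was exceeded by 3.42% of starts called in all 7 lists. The summit of the peak with the highest fold lay 916 to 1381 bp downstream of the start in all 7 lists, inside the gene (chr1:128588199-128592299, minus strand, 4101 bp). In HFD-LSK replicate 3 and LFD-LSK replicates 3 and 4 the domain was called as a pair of peaks, one across the start and one downstream of it. The single peaks of these pairs were 379 to 1268 bp wide. By fragments, the summit across the start was the taller in HFD-LSK replicate 3 (24 against 21) and the lower in LFD-LSK replicates 3 (22 against 31) and 4 (11 against 23). Ranked by the peak across the start, Cxcr4 fell to 16.4%, 30.5% and 95.1% in these lists. The difference between diets became -21.7 percentage points (exact permutation p = 0.543). Its place among the members thus depends on which peak is taken. By summit fragments relative to the median start, 37.5% of starts called in all 7 lists were higher than Cxcr4, against 4.40% for Cd47.

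Itga4 encodes the alpha chain that pairs with the beta-1 chain to bind VCAM1. Fold rank was 26.7%, 42.2% and 10.2% in HFD-LSK and 36.6%, 9.49%, 17.0% and 52.9% in LFD-LSK, so the diets overlapped (difference -2.64 percentage points, exact permutation p = 0.886). Peak width was 1819, 2782 and 1535 bp in HFD-LSK against 819, 2245, 1672 and 1024 bp in LFD-LSK. The largest of the width differences among the 5 genes was seen here, at 605 bp (2045 ± 654 bp, SD, n = 3, against 1440 ± 648 bp, SD, n = 4), and it did not pass the exact permutation test (p = 0.257). The summit lay 22 to 434 bp downstream of the start (chr2:79255426, plus strand) in all lists.

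Itgb1, the beta chain shared by the alpha-4, alpha-5 and alpha-6 integrins, had the narrowest mean peak of the 5. The fold rank was 20.4%, 12.5% and 35.5% in HFD-LSK and 27.3%, 13.1%, 23.0% and 58.9% in LFD-LSK. The diets overlapped (difference -7.75 percentage points, exact permutation p = 0.6), and LFD-LSK replicate 4 alone lay beyond the others. Width ran only from 1029 to 1668 bp over the 7 lists, with means of 1379 ± 314 bp (SD, n = 3) in HFD-LSK and 1255 ± 247 bp (SD, n = 4) in LFD-LSK (exact permutation p = 0.629). No list held a further peak in the gene body (chr8:128685654-128733579, plus strand).

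Itga6, a laminin receptor chain used to sort progenitors, was called by all 3 HFD-LSK lists and by 3 of 4 LFD-LSK lists. The rank was 30.9%, 10.1% and 13.2% in HFD-LSK and 27.3%, 21.4% and 15.8% in LFD-LSK replicates 1 to 3. The groups overlapped (difference -3.41 percentage points, exact permutation test over 20 assignments, p = 0.7, smallest possible 0.1). Over these 6 lists the start peak reached only 0 to 239 bp upstream of the start (chr2:71786886, plus strand), and the summit stayed between 480 and 594 bp downstream. In LFD-LSK replicate 4 the nearest peak was 86108 bp away. The same list called 5 of the 10 genes at the start, against 7 or 8 in every other list, and 30.6% of all starts, the lowest share of the 7 lists (34.8% to 51.8% in the others).

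Itga5, the alpha chain of the main fibronectin receptor, had the weakest mean rank of the called genes. It ranked at 51.1%, 78.9% and 65.1% in HFD-LSK and 86.5% and 64.2% in LFD-LSK replicates 1 and 3. The lists overlapped. The summit held 13 to 38 fragments, and in LFD-LSK replicate 1 its 32 fragments stood against 21, the fewest that any peak of that list had. Such counts of fragments were recovered from each peak's fold and p-value, and for 6 of the 55 start peaks of the 10 genes another whole number was also within the tolerance. In the 2 lists that missed Itga5 the nearest peak was 26246 and 26591 bp from its start (chr15:103366791, minus strand).

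Cd44, the hyaluronan receptor, ranked far below the other genes called in all lists. The values were 65.5%, 53.9% and 36.5% in HFD-LSK and 46.5%, 58.8%, 53.3% and 81.8% in LFD-LSK. The diets overlapped (difference -8.15 percentage points, exact permutation p = 0.543). It ranked farther from the top than Cxcr4, Itga4, Itgb1 and Cd47 in 7 of 7 lists, and 90.6% of starts called in all 7 lists had a mean rank nearer the top. Its width had the widest range of the members, at 1288, 2839 and 595 bp in HFD-LSK and 853, 2522, 1139 and 311 bp in LFD-LSK. The wide values of HFD-LSK replicate 2 and LFD-LSK replicate 2 came from a single peak that reached 2713 and 2640 bp into the gene. HFD-LSK replicate 3 and LFD-LSK replicates 1 and 3 held a separate peak there, with its summit 2090 to 2184 bp from the start (chr2:102901665, minus strand).

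Cd47, the signal that protects a cell from macrophages, had the tallest summits of the 5 genes. By fold, the rank was 3.11%, 43.5% and 26.0% in HFD-LSK and 30.3%, 16.4%, 8.50% and 3.19% in LFD-LSK. The diets overlapped, and Cd47 was the only one of the 5 genes whose HFD-LSK mean lay farther from the top (24.2% ± 20.3, SD, n = 3, against 14.6% ± 11.8, SD, n = 4, difference 9.61 percentage points, exact permutation p = 0.514). The summit itself held 81, 107 and 37 fragments in HFD-LSK and 90, 66, 32 and 36 in LFD-LSK. Divided by the library's background coverage and by the median start called in all 7 lists, this was 1.55 times the median start, a level exceeded by 4.40% of those starts. On that log2 scale Cd47 was at 0.71 ± 0.10 (SD, n = 3) in HFD-LSK and 0.57 ± 0.11 (SD, n = 4) in LFD-LSK. The difference of 0.14 did not pass the exact permutation test (p = 0.143). The start used for Cd47 (chr16:49855654, plus strand) lies inside the RefSeq gene span (chr16:49851328-49912503), and Gm4633, a short RNA gene, lies 608 bp from it. The peak reached 301 to 2439 bp upstream of that start.

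Esam, a junction molecule that marks stem cells, was the one gene whose lists did not overlap between diets among the lists that called it. Esam ranked at 60.6%, 67.5% and 18.4% in HFD-LSK and 77.3%, 85.3% and 76.5% in LFD-LSK replicates 1 to 3. Each HFD-LSK list thus ranked the peak at the Esam start nearer the top than each LFD-LSK list with a call. The means were 48.8% ± 26.6 (SD, n = 3) and 79.7% ± 4.86 (SD, n = 3), a difference of -30.9 percentage points (exact permutation p = 0.1, the smallest that 3 against 3 allows). Without LFD-LSK replicate 4, 4.95% of 6245 starts called in the other 6 lists were separated this way. With the missing call placed at 100%, a choice made after the values were seen, the exact permutation p was 0.0286, the smallest possible. The other 6 lists already did not overlap, so placing the missing LFD-LSK list last fixed the separation. This p adds nothing to the exact permutation p of 0.1 over 6 lists. With the same placement, 3.76% of 11564 starts called in at least 1 list were separated in this direction. By −log10 p the groups overlapped (exact permutation p = 0.2), as they did for the summit level on the log2 scale (-0.60 ± 0.03, SD, n = 3, against -0.94 ± 0.33, SD, n = 3, exact permutation p = 0.2). Ranks by summit fragments did not overlap (exact permutation p = 0.1). The strongest peak inside the gene, away from the start, ranked at 65.5%, 42.7% and 50.3% in HFD-LSK. In LFD-LSK replicates 1 to 3 it ranked at 74.8%, 71.3% and 59.0%, so there the diets overlapped. This peak outranked the one at the start in HFD-LSK replicate 2 and LFD-LSK replicates 1 to 3. By the stronger peak of each list, HFD-LSK replicate 1 (60.6%) lay behind LFD-LSK replicate 3 (59.0%).

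The peaks at Esam also differed in position from list to list. The summit lay 49 to 83 bp downstream of the start (chr9:37528089, plus strand) in HFD-LSK replicates 1 and 2 and LFD-LSK replicate 1. It lay upstream, at -692, -490 and -177 bp, in HFD-LSK replicate 3 and LFD-LSK replicates 2 and 3. Summed width was 998, 1846 and 834 bp in HFD-LSK and 1026, 670 and 1248 bp in LFD-LSK replicates 1 to 3, so the width overlapped (exact permutation p = 0.7). The Esam start was taken as the end of the RefSeq gene. The start peaks of HFD-LSK replicate 3 (14 fragments) and LFD-LSK replicate 2 (18 fragments) ended 126 and 438 bp upstream of it. The nearest other gene, Msantd2, lies 1976 bp from the Esam start.

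**Figure D3:**
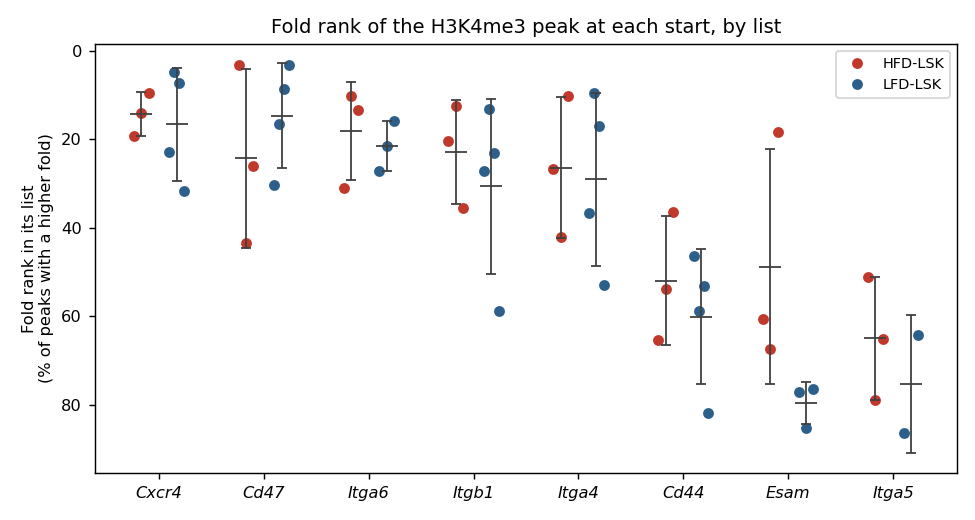
Fold rank of the strongest peak within 1 kb of each start (percentage of peaks in the same list with a higher fold, axis inverted so that the top of the list is up), for the 8 genes with a call. Red points are HFD-LSK lists, blue points LFD-LSK lists, and bars the mean ± SD. The diets overlap at every gene except Esam, for which LFD-LSK replicate 4 has no point.

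None of the 5 genes called in all 7 lists had fold ranks that did not overlap between diets. Over the 4677 starts called in all 7 lists, 3.19% had every HFD-LSK list nearer the top and 1.69% every HFD-LSK list farther from it. In the same exact permutation tests 112 starts (2.39%) had an unadjusted p under 0.05. The smallest Benjamini-Hochberg adjusted p over all starts was 0.955, so no start passed. With a smallest possible p of 0.0286, a start can pass this adjustment only if very many starts share that p. Failing it therefore does not show that no start differs. The median difference was -2.64 percentage points over the 5 genes and -1.48 over all 4677 starts. Of the 5 differences, 4 were negative, with HFD-LSK nearer the top, and none was past its test.

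**Figure D4:**
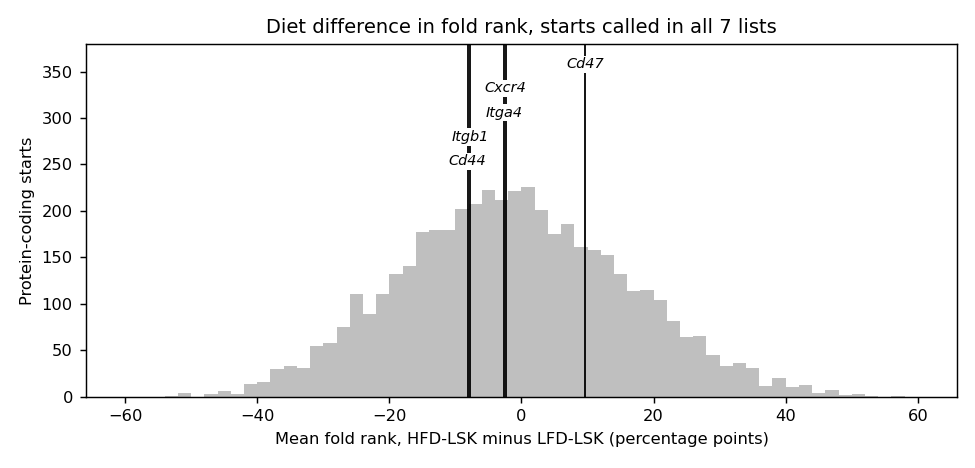
Histogram of the difference in mean fold rank between diets (HFD-LSK minus LFD-LSK, percentage points) over the 4677 protein-coding starts called in all 7 lists, with the 5 genes drawn as lines. All 5, from -8.15 (Cd44) to 9.61 (Cd47), fall in the middle of the distribution.

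Width was tested in the same way as rank. None of the 5 genes had widths that did not overlap between diets, against 6.86% of starts that were wider in every HFD-LSK list and 0% that were narrower. All 5 mean differences were positive, from 124 bp (Itgb1) to 605 bp (Itga4), with a median of 368 bp beside 286 bp over all starts. The smallest adjusted p over all starts was 0.706, with the same limit as for rank, a smallest possible exact permutation p of 0.0286. Widths moved with the list as a whole: the median width over all starts called in every list was 1112, 1698 and 1097 bp in HFD-LSK and 896, 1298, 1103 and 655 bp in LFD-LSK. HFD-LSK replicate 2 gave the widest peak of each of the 8 called genes. The part of list-wide width in these differences was not tested.

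**Figure D5:**
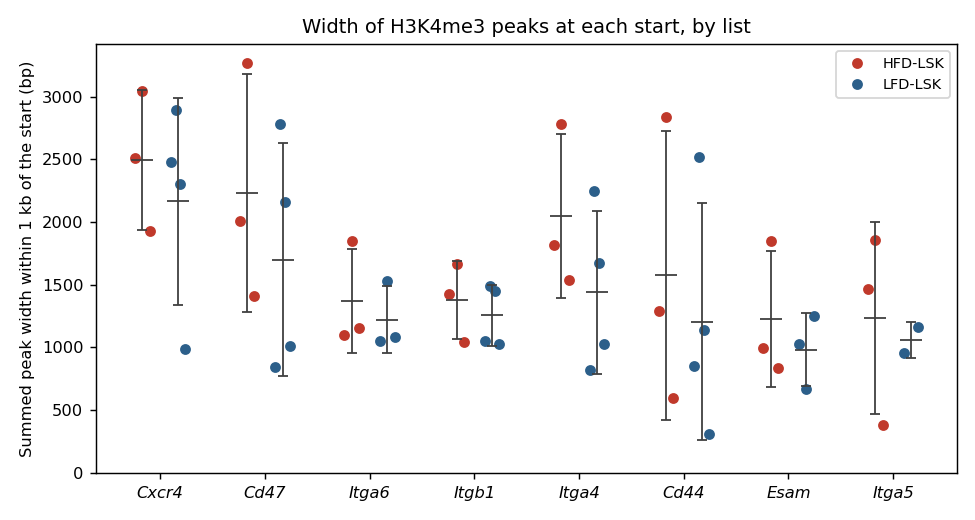
Summed width in bp of the peaks within 1 kb of each start, for the 8 genes with a call, in the order of their fold rank. Red points are HFD-LSK lists, blue points LFD-LSK lists, and bars the mean ± SD. The diets overlap at every gene, and the highest red point of each gene is HFD-LSK replicate 2.

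Within a list, by the strongest peak within 1 kb, the members formed an upper and a lower group. Mean rank ran from Cxcr4 (15.6%) through Cd47 (18.7%), Itga6 (19.8%), Itgb1 (27.2%) and Itga4 (27.9%) to Cd44 (56.6%), Esam (64.2%) and Itga5 (69.2%). Each mean was taken over the lists that called the gene, which were 6 for Itga6 and Esam, 5 for Itga5 and 7 for the others. Means over unlike lists do not settle the order of close neighbours. Neighbours inside each group changed places between lists. Cxcr4 was ahead of Cd47 in 5 of 7 lists, Cd47 ahead of Itga6 in 3 of 6, Itgb1 ahead of Itga4 in 3 of 7, and Esam ahead of Itga5 in 3 of 5. Between the groups the order was steadier: Itga4 was ahead of Cd44 in 7 of 7 lists, ahead of Esam in 6 of 6 and ahead of Itga5 in 5 of 5. Cd47 and Itgb1 were behind Esam in 1 list each.

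Itgal, the alpha chain of the integrin that binds ICAMs on endothelium, had no peak at its start (chr7:127296139, plus strand) or anywhere in the gene in any list. The nearest peak was 21645 to 35351 bp from the start. Itgb2, which encodes its partner chain, was likewise called in no list. A start without a call is one below the calling limit: the fewest fragments at the summit of any called peak were 16, 8 and 4 in HFD-LSK and 21, 10, 8 and 9 in LFD-LSK, so a weaker mark was not detectable.

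Selplg had no peak within 1 kb of the RefSeq gene end used as its start (chr5:113832528, minus strand). HFD-LSK replicate 2 held a peak at chr5:113830127-113830707 and LFD-LSK replicate 3 one at chr5:113830260-113830677, with summits 2095 and 2077 bp inside the gene and 23 and 19 fragments. Their fold ranks were 73.1% and 45.6%. In the GENCODE annotation of GRCm39 the canonical transcript, Selplg-201, starts 2138 bp inside the gene's 5′ end and 11970 bp from its 3′ end, whereas these peaks lay 12329 to 12909 bp and 12462 to 12879 bp from the 3′ end of the 14731 bp RefSeq gene. The builds differ and no position was converted. Whether these 2 lists call the Selplg start therefore depends on which start is taken.

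Peaks in the gene body away from the start were found in at least 1 list for 7 of the 10 genes, beside 12.4% of all protein-coding genes. That share includes the 46.1% of genes with no call at the start in any list, so it is not a matched background. With a 3 kb window the count fell to 2 of the 10 genes. The 7 genes were Cxcr4, Itga4, Itga5, Cd44, Cd47, Selplg and Esam. Esam had them in 6 lists, from 1184 to 3381 bp downstream of the start, and only LFD-LSK replicate 4 lacked one. Cd47 had one in all 3 HFD-LSK lists and in LFD-LSK replicate 2, with summits 3445 to 3563 bp downstream in each. That is 3 of 3 against 1 of 4 lists, which did not pass Fisher's exact test (two-sided, p = 0.143). The remaining genes had a body peak in 1 to 3 lists. At Cd44 and Itga5 these peaks lay where the start peak of other lists reached into the gene, so the same stretch was counted as start in some lists and as body in others.

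Of 48 other niche and adhesion genes, 16 were called in all 7 lists, 21 in 1 to 6 lists and 11 in none. Those called in none were Ackr3, Cxcr2, Itga2b, Itga9, Itgb2, Vcam1, Jam3, Pecam1, Sirpa, Tek and Pxn. The fold ranks of all 16 overlapped between diets, and their median difference was -1.06 percentage points. Kit, which encodes the stem cell factor receptor and was singled out after its values were seen, was the one gene of the 16 whose width did not overlap, beside the 6.86% of all starts that were wider in every HFD-LSK list. It was 1997, 6524 and 1835 bp wide in HFD-LSK and 1742, 1522, 1801 and 897 bp in LFD-LSK. The gap between the lowest HFD-LSK and the highest LFD-LSK list was small beside the spread in HFD-LSK (difference 1962 bp, exact permutation p = 0.0286, adjusted p = 0.706 over all starts).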

How the data were processed

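H3K4me3 peak lists of 7 sorted LSK libraries (3 HFD-LSK, 4 LFD-LSK) were analyzed, and libraries were grouped by their sample titles. The submitters' processing notes name Trim Galore, Bowtie2, Picard, MACS2, bedtools, HOMER, featureCounts and GRCm38, without versions. The study's methods name GRCm39 and another peak caller, so the lists are not those the methods describe. The authors deposited, for each peak, a fold enrichment (the ratio of the summit to its background), the −log10 of both p and q, and a score that was not used here. The coordinates were read as GRCm38.

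Starts came from RefSeq promoter entries of GRCm38.p6 for 17492 genes (6 of the 10 members). For 3949 genes they were the gene's 5′ end, with the strand taken by symbol from GENCODE (21441 of 21887 protein-coding genes placed). Library depth is not given in the lists. Fragments at each summit were recovered by inverting fold and p-value to whole numbers within 0.03, which gave a solution for every peak. The method was tested on data simulated with the same formulas for fold and p-value. That test does not show whether the lists follow these formulas. The fragment numbers carry counting error only as far as fragments are independent molecules.

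At each start the peak with the highest fold gave the rank, and widths within 1 kb were summed. Ranks and widths were tested on starts called in all 7 lists by exact permutation over 35 assignments (two-sided, smallest p 0.0286), and calls by Fisher's exact test. Named genes were the 10 members and, among 48 other niche and adhesion genes, those whose fold ranks did not overlap (there were none) and those called in no list. Kit was named for its width after its values were seen. The promoters shown were those nearest to and farthest from the top. The members and lists were chosen with earlier results of these data known. Python 3.11.15, NumPy 2.4.6 and SciPy 1.17.1 were used. Alternatives covered the q threshold, list length, window, rank measure, width measure, each library left out and pairing by replicate number.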

Additional observations from a re-analysis of the deposited data

Results flagged for a closer look

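Of 15 sets of 4 LFD-LSK values examined for the 5 genes called in all 7 lists (fold rank, width and log2 summit level), 1 held a value far from the other 3. The summit level of Itgb1 in LFD-LSK replicate 4 was -0.42 on the log2 scale relative to the median start, while the other LFD-LSK lists lay between 0 and 0.06. Its gap to the nearest list was 0.866 of the whole range. Chance alone marks about 1 in 20 such sets.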

How the results depend on the processing

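The count of genes called in all 7 lists (5) ranged from 5 to 7 when each library was left out in turn, 7 being without LFD-LSK replicate 4. It was 4, without Cd44, with −log10 q of at least 5 and with lists of equal length. The count whose fold ranks did not overlap was 0, and 0 to 1 with a library left out, the 1 being Esam without LFD-LSK replicate 4. It was also 1 (Esam) with uncalled lists placed at 100%, an alternative chosen after seeing the data, as was the centred log2 summit level. Placing the missing Esam list last keeps the separation of the other lists by construction. The count whose widths did not overlap stayed at 0 under every alternative run. The count with a gene body peak (7) was 6 to 7 with a library left out, 4 with −log10 q of at least 5, 4 with lists of equal length and 2 with a 3 kb window.

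For the 5 genes called in all 7 lists no difference was past its test in any alternative run. Runs without 1 library and the replicate block could not pass at 0.05 whatever their values. The smallest p their exact tests allow was 0.1 for 3 against 3 libraries and 0.25 for 3 pairs. The sign of several differences turned (HFD-LSK minus LFD-LSK, rank in percentage points unless stated). With equal list lengths, fold rank was 4.24 for Cxcr4, 11.2 for Itga4 and 1.74 for Itgb1. Among starts called in all 7 lists it was 1.38 for Cxcr4 and 2.93 for Itga4. By −log10 p it was 2.45 for Cxcr4 and -12.1 for Cd47, and by summit fragments 0.034 for Cxcr4 and -2.50 for Cd47. As a plain rank number it was 294 for Cxcr4, 778 for Itga4, 121 for Itgb1 and 599 for Cd44. On the log2 summit scale, where a positive value is nearer the top, it was -0.18 for Cxcr4, -0.039 for Cd44 and 0.14 for Cd47. Without 1 library fold rank ran from -6.37 to 2.66 for Cxcr4, from -10.5 to 5.45 for Itga4, from -14.1 to 1.69 for Itgb1 and from -0.030 to 20.2 for Cd47. With a 500 bp window, and with the peak whose summit is nearest the start, the fold rank difference of Cxcr4 was -21.7. Width ran from -63.7 to 611 bp for Cxcr4, from -21 to 290.5 bp for Itgb1 and from -265 to 857 bp for Cd44. Turned values were 0.024 (Cxcr4) and 5.45 (Itga4) without HFD-LSK replicate 3, -0.030 (Cd47) without HFD-LSK replicate 2, and 2.66 (Cxcr4), 5.33 (Itga4) and 1.69 (Itgb1) without LFD-LSK replicate 4. Width turned to -21 bp (Itgb1) and -265 bp (Cd44) without HFD-LSK replicate 2 and to -63.7 bp (Cxcr4) without LFD-LSK replicate 4, and width as a place in its list gave 6.71 for Itgb1. The cause was not tested.

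Whether the replicate numbers pair the libraries is not known from the labels. The study states that diets were compared within a cohort and that its own model took account of batch and pairing. The labels give no cohort, so the exact permutation tests treated the 7 libraries as exchangeable. Deviations of same-numbered libraries correlated at 0.179, 0.017 and 0.043. HFD-LSK replicates 1 and 2 correlated best with the same-numbered library, and HFD-LSK replicate 3 with LFD-LSK replicate 2 (0.046). These values do not settle the pairing. With the number as a replicate block, over 3 pairs, rank differences turned to 2.66 (Cxcr4), 5.33 (Itga4) and 1.69 (Itgb1) and the width difference of Cxcr4 to -63.7 bp, and no call changed. Recovered depth was low, with median summits of 15 to 48 fragments, so weak marks were not detectable.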
